A study of Mus musculus with 6 samples.

Results

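The barcodes described here met a rule for tumor-infiltrating T cells with a high share of Malat1 RNA and little ribosomal protein mRNA. They were taken from single-cell RNA-Seq of CD45+ cells of B16-F10 tumors, a mouse melanoma grown in C57BL/6 mice. In 1 of the 2 groups, αPD-1 + corin, most of them also carried neutrophil transcripts. The members were chosen by their measured values, and 185 of 3697 T cell barcodes met the rule, out of 52899 deposited barcodes. A barcode had to hold 600 to 4000 detected genes, at most 10% mitochondrial UMIs (unique molecular identifiers, each standing for 1 captured RNA molecule), at least 1 UMI of Cd3d, Cd3e or Cd3g, at most 1 UMI of the cycling genes Mki67 and Top2a together, no UMI of the B cell genes Cd79a, Cd79b and Ms4a1, and at most 1 UMI of the macrophage C1q genes. These limits alone define the T cells here. Members also had at least 1.5% of their UMIs from Malat1 and at most 8% from Rpl and Rps genes, and the other 3512 T cells served as the comparison. Values below that set members against other T cells within a group are descriptions without a test, since the rule selected the members on the same UMIs. Only the interaction of group and class was tested, and its classes come from the same rule.

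The 6 samples fell into an αPD-1 group and an αPD-1 + corin group, with 3 samples in each. Female mice aged 6 to 10 weeks were given 250000 B16-F10 cells, and in all 6 samples αPD-1 antibody was injected from day 7 at 150 μg, 3 times a week. The αPD-1 + corin mice also received 200 μg of corin per day from day 6, whereas the protocol names a vehicle in place of corin otherwise. Corin is an inhibitor that targets the LSD1 and HDAC activities of the CoREST repressor complex. Each arm held 10 mice. How they map onto the samples is not stated, so that p-values measure the spread between these samples, part of which may be technical. Tumors were dissociated, frozen, thawed, depleted of dead cells and enriched for CD45 on magnetic beads before capture.

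Malat1 is a long noncoding RNA that stays in the nucleus, where it gathers at the speckles that store splicing factors, while mRNAs of ribosomal proteins, actin and thymosins are abundant in the cytoplasm. Transcripts of long genes spend longer being copied and spliced in the nucleus, and RNA captured from introns adds to their counts where introns are counted. Foxp1, Bach2, Lef1, Tcf7, Satb1 and Foxo1 are transcription factors that hold naive and memory T cells in a resting state, and their loss accompanies effector differentiation. In the text a level is given in CPM, that is, the UMIs of a gene summed over the members of a sample, scaled so that all their UMIs add up to 1000000. A ratio of members to other T cells is on the log2 scale after adding 10 CPM to both levels.

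The 6 libraries held between 52281422 and 84276739 UMIs over 32285 genes, and no deposited barcode had fewer than 500 UMIs. Between 10 and 32 barcode sequences were shared by any pair of libraries, none of them a member in both libraries, and 2 member barcodes also occurred in another library. The members summed to 207575 UMIs in 123 αPD-1 barcodes (57, 33 and 33 in replicates 1 to 3) and to 210692 UMIs in 62 αPD-1 + corin barcodes (11, 42 and 9). A gene without any UMI in the pooled members of a group could therefore have been present at up to 14.5 CPM in αPD-1 and 14.2 CPM in αPD-1 + corin (3 UMIs over the group, counting error only).

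Most members of both groups carried T cell transcripts outside the rule, but most αPD-1 + corin members also carried neutrophil transcripts. Of 18 T cell genes that the rule did not use, among them Trac, Lck, Skap1 and Themis, 116 of 123 αPD-1 members carried 3 or more UMIs (median 13 UMIs). In αPD-1 + corin, 46 of 62 did (median 7 UMIs). At least 2 Cd3 UMIs were held by 40 of 123 αPD-1 members and 34 of 62 αPD-1 + corin members. Of other T cells, 1422 of 1691 αPD-1 barcodes and 1564 of 1821 αPD-1 + corin barcodes held as many. A list of 6 neutrophil genes (S100a8, S100a9, Csf3r, Cxcr2, Retnlg and Il1b) had no UMI in any of the 123 αPD-1 members, which allows a share of barcodes with such a UMI of up to 2.44%. The same list had 3 or more UMIs in 48 of 62 αPD-1 + corin members (9 of 11, 36 of 42 and 3 of 9), with a median of 124.5 and a maximum of 756 UMIs in those 48. Of the 48, 33 also carried at least 3 UMIs of the T cell genes and 15 did not. Because of this, the αPD-1 + corin barcodes are called members of the rule, not Malat1-high T cells.

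Neutrophil transcripts were not spread evenly over the αPD-1 + corin libraries or over cell types. S100a9, a calcium-binding protein stored in neutrophil granules and cytosol, was at 21400, 25394 and 418 CPM in the members of αPD-1 + corin replicates 1 to 3 and at 0 in all 3 αPD-1 samples. After cells were thinned to 800 UMIs each, with at most 500 B cells and 500 C1q-positive cells drawn per library, S100a9 had a UMI in 81.8%, 78.6% and 22.2% of the αPD-1 + corin members, against 37.6%, 33.3% and 0% of B cells and 12.6%, 24.8% and 1.0% of C1q-positive cells of the same libraries. Csf3r, the receptor for the neutrophil growth factor G-CSF, was at 720, 465 and 0 CPM, and Cxcr2, the chemokine receptor that draws neutrophils, at 377, 279 and 0 CPM. Among other T cells, 56 of 1691 αPD-1 barcodes and 389 of 1821 αPD-1 + corin barcodes had 3 or more UMIs of the list. The Scrublet doublet score marked 1 of the 185 members and 90 of the 3697 T cell barcodes. Over all 52899 deposited barcodes it marked 2002, a number set by the assumed rate. The median score in replicates 1 to 3 was 0.020, 0.023 and 0.021 in αPD-1 members and 0.030, 0.035 and 0.029 in αPD-1 other T cells. In αPD-1 + corin it was 0.056, 0.078 and 0.036 in members and 0.058, 0.064 and 0.030 in other T cells.

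Nearly all fibroblast transcripts came from 1 member each in αPD-1 replicate 3 (391 UMIs of the 6 listed genes) and αPD-1 + corin replicate 3 (949 UMIs), and 3 other αPD-1 + corin members held 1 UMI each. Col1a1, the main chain of type I collagen, reached 2950 and 19163 CPM in these samples. The αPD-1 + corin barcode held 17584 of the 31101 UMIs of its sample's 9 members, so that any mean over that sample rests largely on it. Values without the barcodes that had at least 3 neutrophil or 5 fibroblast UMIs are given beside the results they touch. This trimmed set held 122 αPD-1 members and 14 αPD-1 + corin members (2, 6 and 6) with 200191 and 29349 UMIs, was chosen after its values were seen, and was not tested. The part of these transcripts in the group differences below was not tested.

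**Figure D1:**
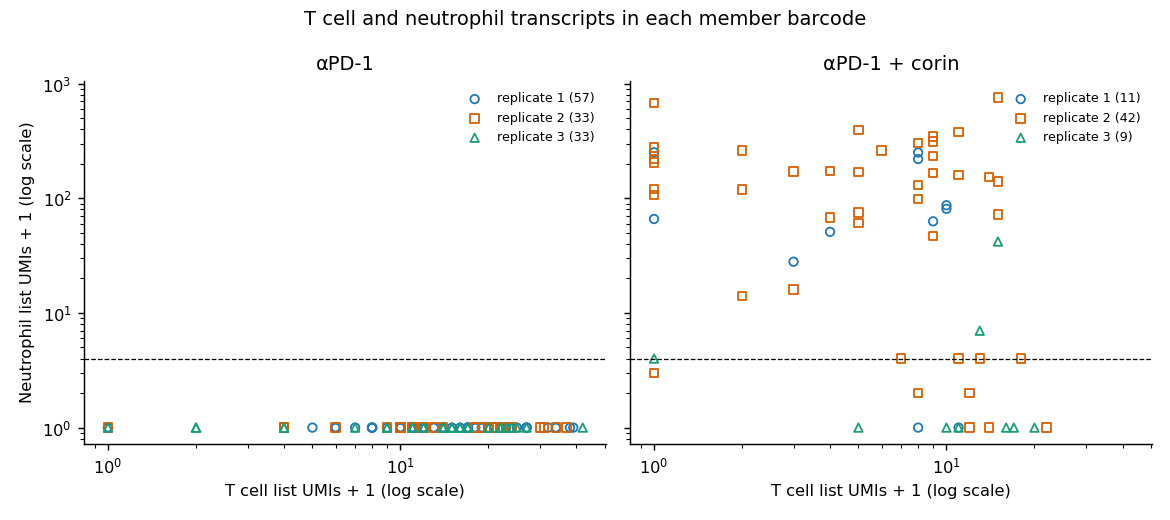
UMIs of the 18 T cell genes (x axis, UMIs + 1, log scale) against UMIs of the 6 neutrophil genes (y axis, UMIs + 1, log scale) in each member, 1 point per barcode, with αPD-1 on the left and αPD-1 + corin on the right. The dashed line marks 3 neutrophil UMIs: none of the 123 αPD-1 members and 48 of the 62 αPD-1 + corin members lie on or above it.

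The values that chose the members also differed between the groups. The median Malat1 share of members was 2.97%, 2.86% and 2.89% of UMIs in αPD-1 replicates 1 to 3 and 1.96%, 2.10% and 2.20% in αPD-1 + corin. The median ribosomal share was 1.09%, 1.84% and 1.04% in αPD-1 members and 5.58%, 5.55% and 5.70% in αPD-1 + corin members. In other T cells it was 19.5% in αPD-1 and 17.6% in αPD-1 + corin, over all barcodes of the group. αPD-1 members thus lay far below the 8% limit, 83 of 123 at 2% or less, while 39 of 62 αPD-1 + corin members lay between 5% and 8%. Among αPD-1 barcodes that met the rest of the rule, 3 members had 7% to 8% ribosomal UMIs and 5 barcodes just outside had 8% to 9%, and 4 members had 1.5% to 1.6% Malat1 and 4 barcodes outside 1.4% to 1.5%. In αPD-1 + corin, 11 of the 62 members had 7% to 8% ribosomal UMIs and 15 barcodes outside had 8% to 9%, and 7 members had 1.5% to 1.6% Malat1 and 4 barcodes outside 1.4% to 1.5%. The αPD-1 + corin members were thus not clear of the ribosomal limit. The median depth of a member was 1539 UMIs in αPD-1 and 2852 in αPD-1 + corin, against 2407 and 2829 for other T cells.

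**Figure D2:**
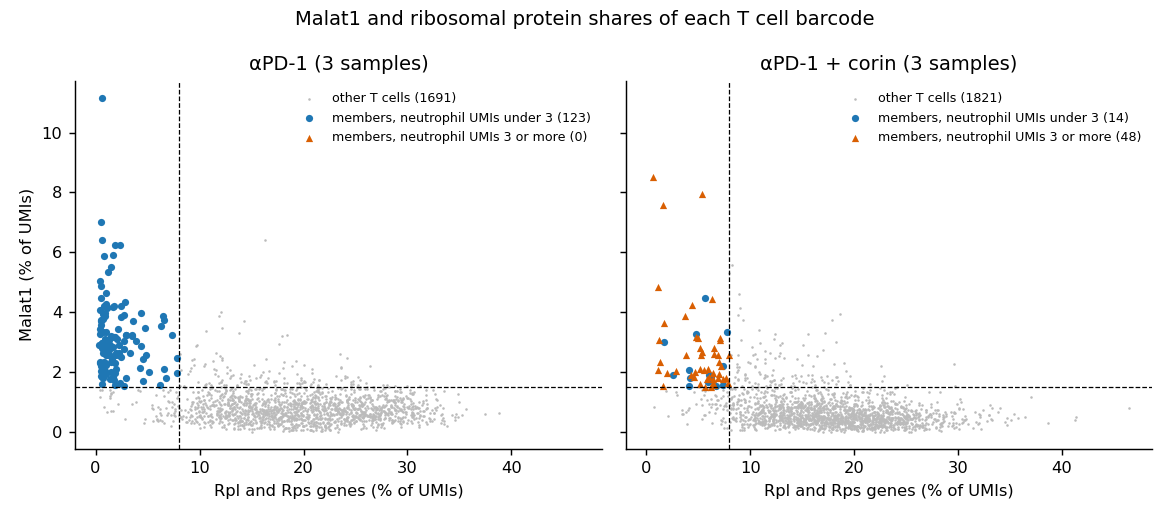
Malat1 share (y axis, % of UMIs) against Rpl and Rps share (x axis, % of UMIs) of every T cell barcode, with members in color and other T cells in gray. The dashed lines are the limits of the rule at 1.5% and 8%; αPD-1 members gather below 2% ribosomal UMIs (83 of 123), whereas 39 of 62 αPD-1 + corin members sit between 5% and 8%.

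Members made up 8.68%, 5.17% and 6.36% of T cells in αPD-1 (95% Wilson intervals 6.76% to 11.1%, 3.71% to 7.17% and 4.56% to 8.80%). They made up 3.46%, 8.79% and 0.828% in αPD-1 + corin (1.94% to 6.09%, 6.57% to 11.7% and 0.44% to 1.57%). αPD-1 + corin replicate 2 was the highest of all 6 samples and replicate 3 the lowest, so the groups overlapped. The means of 6.74% ± 1.78 and 4.36% ± 4.05 (SD, n = 3 each) differed by -2.38 percentage points, which a two-sided exact permutation test did not separate (p = 0.5, with 0.1 the smallest value that 3 against 3 samples allow). Without the neutrophil- and fibroblast-bearing barcodes the shares were 8.99%, 5.31% and 6.48% in αPD-1 and 1.05%, 2.47% and 0.61% in αPD-1 + corin, with no overlap and no test. Without αPD-1 + corin replicate 2 the difference was -4.59 points and without replicate 3 it was -0.613 points.

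The 5 genes listed as marks of these cells were higher in αPD-1 members than in other T cells of each αPD-1 sample. They were listed with earlier results of these data known, so their higher level here is a description and not support for what the cells are. Malat1, encoded at chr19:5845717-5853602 (GRCm39, GENCODE vM39 positions throughout), was part of the rule and stood at 32977, 29021 and 29761 CPM in αPD-1 members against 7570, 7130 and 6954 CPM in other T cells. Foxp1 (chr6:98902299-99499685), a forkhead factor that keeps naive T cells quiescent, was at 3291, 3208 and 2664 CPM against 817, 667 and 675 CPM. Bach2 (chr4:32238714-32586108), a repressor of effector genes, was at 1611, 1733 and 1415 CPM against 436, 339 and 336 CPM. Members and other T cells did not overlap for any of these 3 genes in αPD-1.

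Rapgef4 (chr2:71811328-72089838), a cAMP-activated exchange factor for Rap GTPases, was at 380, 240 and 482 CPM in αPD-1 members against 59.6, 45.5 and 52.7 CPM. Auts2 (chr5:131466171-132572183), a chromatin regulator, was at 115, 369 and 120 CPM against 38.4, 32.5 and 22.3 CPM. Both were again higher in every αPD-1 member sum than in any other T cell sum. Foxp1 and Bach2 were not marks of T cells alone: at 800 UMIs per cell, Foxp1 had a UMI in 59.8%, 61.8% and 68.4% of αPD-1 B cells and in 75.4%, 69.7% and 75.8% of αPD-1 members, and Bach2 in 59.2%, 60.2% and 66.0% against 56.1%, 63.6% and 60.6%.

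In the αPD-1 + corin members, of these 5 genes only Malat1 was higher than in other T cells of every sample. Malat1 was at 20645, 26617 and 20675 CPM against 5940, 8632 and 5239 CPM. Foxp1 was at 206, 173 and 354 CPM against 253, 238 and 214 CPM, and Bach2 at 137, 46.5 and 64.3 CPM against 121, 114 and 97.7 CPM. Auts2 had no UMI in these members, and Rapgef4 had 1, which is 6.65 CPM in replicate 2, against 30.6, 19.5 and 7.73 CPM in other T cells. Rapgef4 was thus below other T cells in all 3 samples, on 1 UMI in all. The 14 members left after trimming held 6 UMIs of Foxp1 and 3 of Bach2 (204 and 102 CPM pooled) and none of Auts2, Rapgef4 or Lef1. The low levels were therefore also present in barcodes with fewer than 3 neutrophil UMIs.

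**Figure D3:**
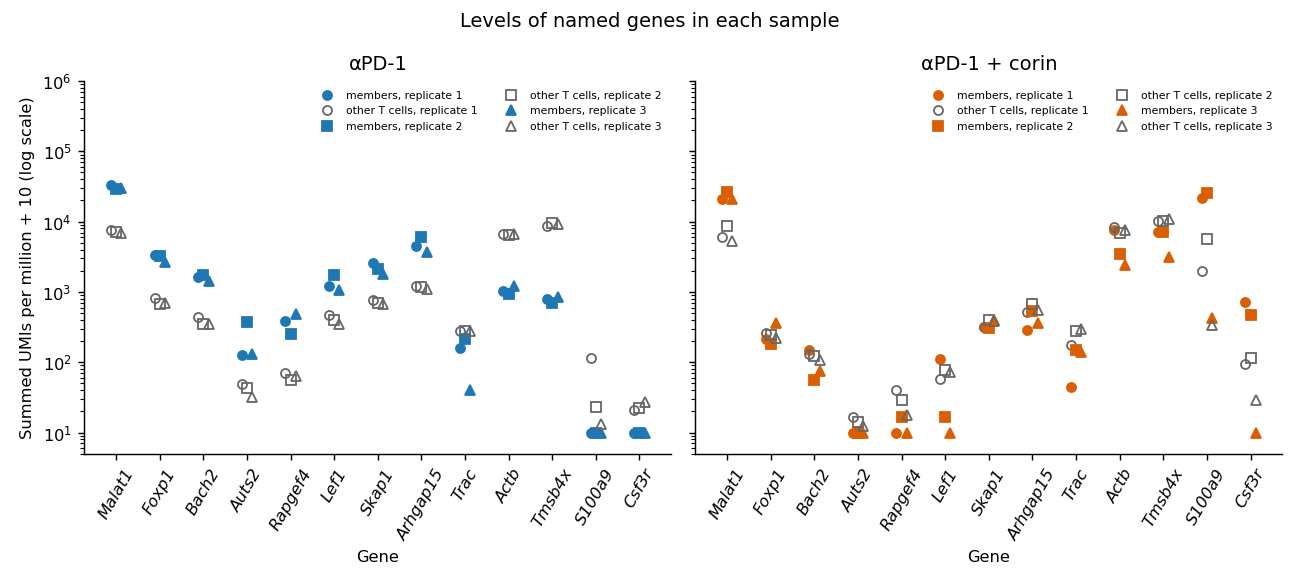
Level of 13 genes (y axis, CPM of summed UMIs + 10, log scale) in members (filled) and other T cells (open) of each replicate, αPD-1 on the left and αPD-1 + corin on the right. In αPD-1, Foxp1, Bach2, Auts2, Rapgef4, Lef1, Skap1 and Arhgap15 are higher in members and Actb and Tmsb4x lower in all 3 replicates; in αPD-1 + corin only Malat1 among the first 8 genes is higher in members of all 3 replicates, and S100a9 is highest in the members of replicates 1 and 2.

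In αPD-1, more measured genes were higher than lower in members. Of 1896 genes with a mean of at least 100 CPM over the 2 classes, outside Malat1, ribosomal and mitochondrial genes, 58% were higher in members in all 3 αPD-1 samples, 22.4% were lower in all 3, and the median log2 ratio was 0.75. In αPD-1 + corin the same shares were 19.6% and 29.1% of 1467 genes, with a median of -0.05. Over all 6 samples, 8.41% of 1736 genes were higher and 16.8% lower in members in every sample. Counts for gene lists are read against these shares. The totals that scale CPM include ribosomal UMIs, of which members were chosen to hold few. This raises the CPM of all other genes in members, by an amount that was not estimated. The median ribosomal share was 1.43% in members and 19.5% in other T cells in αPD-1, and 5.64% and 17.6% in αPD-1 + corin.

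Genes of the resting state were higher in αPD-1 members. Of 16 measured genes of the naive and quiescent list, 13 were higher in all 3 samples and 2 lower, and the median log2 ratio was 1.56. Lef1, a partner of β-catenin in naive T cells, was at 1220, 1715 and 1069 CPM in members against 460, 392 and 343 CPM in other T cells. Satb1, a chromatin organizer of T cell development, averaged 1335 ± 365 CPM against 334 ± 76.4 CPM (SD, n = 3). Bcl2, an inhibitor of apoptosis, averaged 1167 ± 324 against 238 ± 35.3 CPM, and Tcf7, of the same family as Lef1, 557 ± 220 against 288 ± 59.0 CPM. Each of these 4 genes was higher in members than in other T cells of every αPD-1 sample. The genes that were lower, Klf2 and Id3, are also factors of resting T cells but span only 2.78 and 2.26 kb.

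T cell identity genes were divided in αPD-1 members. Of 17 measured genes, 11 were higher in all 3 samples and 4 lower, shares near the 58% and 22.4% of all measured genes, and the median log2 ratio of 0.46 lay below the 0.75 of all measured genes. The 11 span at least 21.1 kb and the 4 less than 6 kb. Skap1, an adaptor of the T cell receptor that spans 295 kb, was at 2543, 2139 and 1806 CPM against a mean of 705 ± 55.3 CPM in other T cells. Themis, a thymocyte selection protein over 215 kb, averaged 1150 ± 159 against 338 ± 23.6 CPM, and Bcl11b, a T lineage factor over 93.8 kb, 912 ± 269 against 250 ± 26.2 CPM. The T cell receptor constant gene Trac, over 3.69 kb, was at 150, 203 and 30.1 CPM against 266, 271 and 266 CPM, and Trbc2 averaged 76.5 ± 27.1 against 201 ± 15.5 CPM. The adaptor Lat (110 ± 25.9 against 308 ± 28.5 CPM) and the surface protein Thy1 (132 ± 37.1 against 422 ± 7.22 CPM) were the other two that were lower.

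Long genes used in T cells, a list chosen for its length, moved together. All 26 were higher in αPD-1 members in each αPD-1 sample (median log2 ratio 1.57). Arhgap15, a brake on Rac that spans 647 kb, was at 4545, 6011 and 3718 CPM against a mean of 1166 ± 60.8 CPM. Dock2, the Rac activator that drives lymphocyte migration, averaged 5967 ± 115 against 2504 ± 140 CPM, and Prkcq, the protein kinase C of the immune synapse, was at 863, 1586 and 1295 CPM against 294 ± 6.23 CPM. Of 8 measured nuclear noncoding RNAs, 5 were higher in all 3 samples, a share near the 58% of all measured genes, and none was lower. Xist, the RNA that coats the inactive X chromosome, averaged 1275 ± 213 against 425 ± 1.76 CPM, Neat1, the scaffold of paraspeckles, 294 ± 58.9 against 100 ± 11.1 CPM, and Kcnq1ot1, an imprinted antisense RNA, 277 ± 111 against 53.8 ± 0.759 CPM. Kcnq1ot1 lies on the opposite strand of Kcnq1, and the strand setting of the counting is not given in the sources used here.

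Not all nuclear RNA was higher. Gm42418 averaged 34653 ± 4594 CPM in αPD-1 members and 38151 ± 9553 CPM in other T cells, and Gm26917 was at 16005, 11247 and 9318 CPM against 1151, 961 and 1302 CPM. Both are predicted genes to which reads of ribosomal RNA can be assigned, so their levels are uncertain. mRNAs of speckle and splicing proteins showed no common direction: of 18 measured, 6 were higher and 3 lower in all 3 samples, and the median log2 ratio was 0.00. Srrm2, a speckle scaffold protein, averaged 1082 ± 197 against 510 ± 30 CPM, whereas the splicing factor Rbm39 averaged 783 ± 20.1 against 812 ± 42.4 CPM. Of the 5 CoREST complex genes, 2 were measured, and both were higher in each αPD-1 sample: Rcor1, the CoREST scaffold (190 ± 55.3 against 110 ± 9.75 CPM), and Kdm1a, the LSD1 demethylase (144 ± 7.61 against 78.9 ± 11 CPM).

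Abundant cytoplasmic mRNAs were lower in αPD-1 members without exception among 23 measured housekeeping genes (median log2 ratio -2.26). Actb was at 1036, 922 and 1219 CPM against 6581, 6430 and 6742 CPM. Tmsb4x, which binds actin monomers, was at 782, 682 and 843 CPM against a mean of 9147 ± 356 CPM. Effector genes were also lower, 10 of 12 in all 3 samples with none higher (median log2 ratio -1.81). The chemokine Ccl5 averaged 420 ± 116 against 2408 ± 528 CPM and Nkg7, a protein of cytotoxic granules, 152 ± 92.3 against 925 ± 98.1 CPM. Of 6 interferon-stimulated genes, 5 were lower in all 3 samples, and of 12 immediate-early and stress genes, 9 were lower and Fosb alone was higher in all 3 samples. Tox, which marks chronically stimulated T cells and spans 305 kb, was higher in all 3 (1168 ± 425 against 394 ± 71.1 CPM), while of the 5 measured inhibitory receptor and exhaustion genes 2 were lower in all 3 (median log2 ratio -0.46).

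Markers of other cell types did not share a direction in αPD-1 members. The 10 macrophage and monocyte genes summed to 316 ± 184 CPM in members and 1620 ± 914 CPM in other T cells, the 6 NK cell genes to 74.2 ± 18.4 and 138 ± 20.4 CPM, and the 12 B cell genes to 2514 ± 170 and 2311 ± 409 CPM. Within the B cell list, Aff3, which T cells also express, averaged 1550 ± 161 CPM in members, while Cd74 averaged 166 ± 138 against 1610 ± 368 CPM. The B lineage factor Ebf1 was at 69.0, 350 and 452 CPM in members against 83.2, 46.4 and 58.8 CPM, higher in replicates 2 and 3. In the trimmed members Ebf1 was at 203 CPM in replicate 3. The 6 melanoma genes summed to 173 ± 73.8 against 117 ± 65.3 CPM. Their levels in members were 1.48, 1.82 and 1.33 times those in other T cells. Without neutrophil- or fibroblast-bearing barcodes these ratios were 1.5, 1.81 and 0.766. The 5 endothelial genes summed to 455 ± 104 against 92.4 ± 18.3 CPM (3.05, 6.59 and 5.85 times as high), of which only Pecam1, also found on leukocytes, was measured on its own.

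Genes that moved in 1 direction in all 6 samples were led by Gm26917, Igf1r, Il1rap, Abtb2, Sipa1l1, Mbd5, Zswim6, Mbnl2, Retreg1 and Lpp on the higher side, with median log2 ratios from 2.35 to 1.49. Apart from Gm26917, which has no span in the annotation used, each spans more than 100 kb, from 131 kb in Retreg1 to 599 kb in Lpp. Igf1r, the receptor of insulin-like growth factor, averaged 212 ± 120 CPM in αPD-1 members and 428 CPM in αPD-1 + corin members, against 40.5 and 86.4 CPM in other T cells. On the lower side were Gzmc, Rtraf, AW112010, Ifng, Atp5j2, Selenof, Atp5d, Snrpe, Tmsb4x and Tpt1, from -3.51 to -2.57, and the longest of them, Selenof, spans 27.4 kb. Ifng, which encodes interferon-γ, averaged 9.98 ± 9.31 CPM in αPD-1 members against 209 ± 28.5 CPM, and 41.7 against 256 CPM in αPD-1 + corin.

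The ratio of members to other T cells followed gene span in αPD-1. Among genes spanning under 10 kb the median log2 ratio was -1.77, -1.62 and -1.81 in the 3 αPD-1 samples. It was 1.79, 1.79 and 1.76 among genes over 300 kb. Between 94.9% and 99.0% of genes over 300 kb and between 5.93% and 12.6% of genes under 10 kb were higher in members. Across 1892 genes Spearman's rho between span and ratio was 0.77, 0.72 and 0.77, given as a description because genes of 1 library are not independent replicates. In αPD-1 + corin the medians ran from -0.33, -0.42 and -0.92 under 10 kb to 0.26, 0.14 and 0.55 over 300 kb, and rho was 0.19, 0.21 and 0.38 across 1463 genes. The 3 αPD-1 samples had gene ratios that resembled each other (Pearson's r from 0.80 to 0.86 across 1088 genes), while the 3 αPD-1 + corin samples had r from 0.07 to 0.53.

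**Figure D4:**
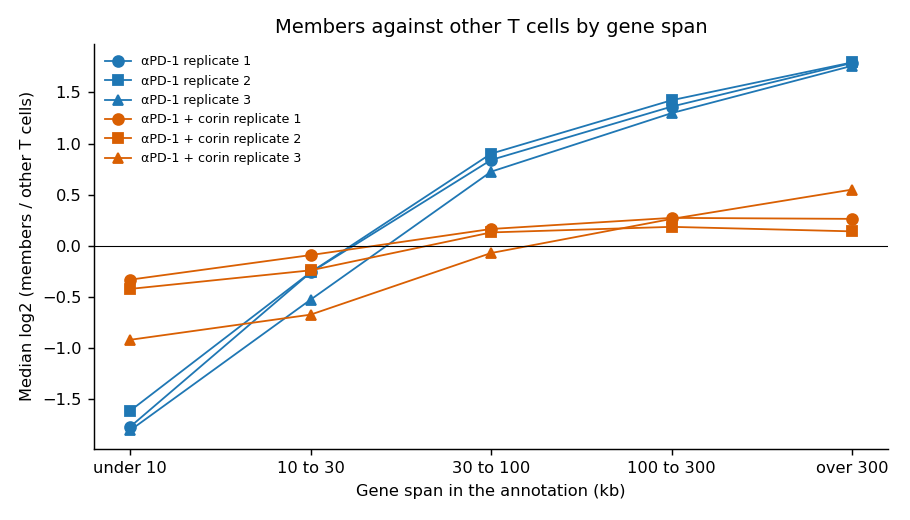
Median log2 ratio of members to other T cells (y axis) in 5 classes of gene span (x axis, kb), 1 line per sample. The αPD-1 lines climb from about -1.7 under 10 kb (-1.77, -1.62 and -1.81) to 1.79, 1.79 and 1.76 over 300 kb, and the αPD-1 + corin lines stay between -0.92 and 0.55.

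Genes spanning over 100 kb gave 35.9%, 34.9% and 38.6% of the UMIs of αPD-1 members (Malat1, ribosomal and mitochondrial genes left out), a mean of 36.5% ± 1.95, against 15.7% ± 0.58 in other T cells. In αPD-1 + corin members they gave 14.3%, 15.5% and 20.9%, a mean of 16.9% ± 3.53, against 13.2% ± 0.56. The groups of members did not overlap, and the difference of -19.6 percentage points had p = 0.1 in the two-sided exact permutation test, the smallest value that 3 against 3 samples allow. The difference in other T cells was -2.48 points, also without overlap (p = 0.1, exact permutation test). Without the neutrophil- and fibroblast-bearing barcodes the member means were 36.9% ± 2.67 and 25.1% ± 2.82, a difference of -11.8 points that was not tested.

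**Figure D5:**
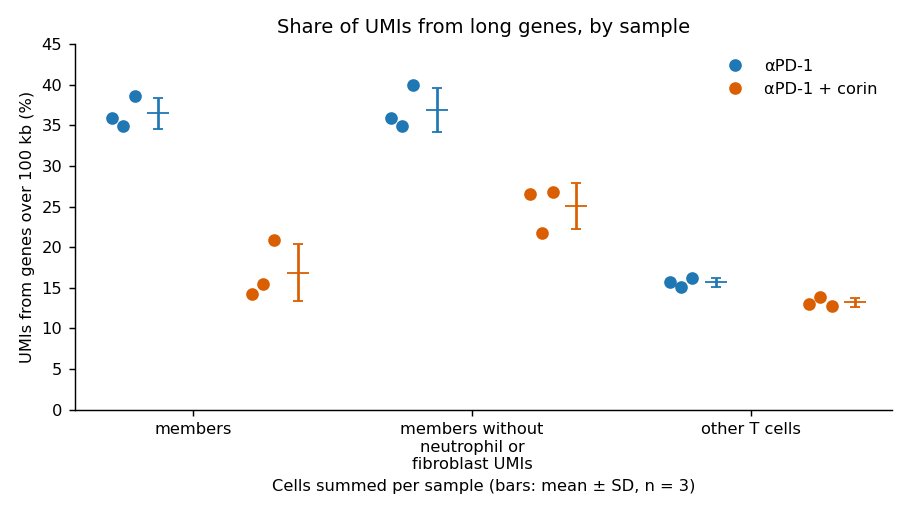
Share of UMIs from genes over 100 kb (y axis, %) in members, in members without barcodes that held neutrophil or fibroblast UMIs, and in other T cells; points are samples and bars are means ± SD (n = 3). αPD-1 members sit at 34.9% to 38.6%, αPD-1 + corin members at 14.3% to 20.9%, and other T cells of both groups below 17%.

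The same Malat1 and ribosomal limits picked out cells with more long-gene RNA in other lineages. In αPD-1, 132 of 2680 B cells and 264 of 1588 C1q-positive cells met them. Their share of UMIs from genes over 100 kb was 25.5% ± 9.15 against 13.9% ± 1.88 in the remaining B cells and 27.8% ± 2.14 against 15.7% ± 0.71 in the remaining C1q-positive cells (n = 3 each). Of the 26 long genes listed for T cells, 22 were higher in such B cells and 19 in such C1q-positive cells in all 3 αPD-1 samples, where 40.3% and 55.1% of 1896 measured genes were. Of 23 housekeeping genes, 21 and 23 were lower, against 24.3% and 22.6% of measured genes. Of 16 naive and quiescent genes, 8 were higher and 5 lower in such B cells (median log2 ratio 0.61). In such C1q-positive cells 9 were higher and 1 lower (0.28). Of 12 immediate-early and stress genes, 9 were lower and 0 higher in such B cells, and 1 was lower and 4 higher in such C1q-positive cells. In αPD-1 + corin, 912 of 6098 C1q-positive cells met the limits, with a long-gene share of 18.5% against 13.6%. A high long-gene share and a low level of cytoplasmic mRNAs were thus found under these limits in 3 lineages.

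In αPD-1 + corin members, 332 genes (28.1%) were higher and 359 (30.4%) lower than in αPD-1 members, of 1181 genes tested by edgeR's quasi-likelihood test on UMIs summed per sample (adjusted p under 0.05). Malat1 and the Rpl and Rps genes, on which the members were chosen, were not left out of this test. With Malat1, ribosomal and mitochondrial genes left out, 310 genes were higher and 245 lower, of 1098 tested. Genes of the resting state and long genes fell, and cytoplasmic, immediate-early and myeloid genes rose. The median log2 fold change of all tested genes was -0.26 after TMM scaling, -0.19 after RLE and -1 with no scaling factor, and the directions of the genes named below were the same under all 3. Fewer cells of a type and less RNA per cell cannot be told apart in sums over barcodes, and here a sum can also hold RNA of more than 1 cell type. In the trimmed members all 359 lower genes and 298 of the 332 higher genes kept their direction in pooled CPM, and 34 did not, a comparison without a test. Trimming did not make the groups alike in the values of the rule. Among members with fewer than 3 neutrophil UMIs the median ribosomal share was 1.43% in αPD-1 and 5.82% in αPD-1 + corin. The housekeeping genes summed to a mean of 9660 and 37704 CPM in the trimmed members. Without αPD-1 + corin replicate 1, 2 or 3 the counts were 377, 261 and 580 higher and 205, 130 and 472 lower.

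Of 13 tested naive and quiescent genes, 11 fell and 1, Klf2, rose. Klf2 turned direction in the trimmed members, where it was at 170 CPM in αPD-1 and 102 CPM in αPD-1 + corin (34 and 3 UMIs), against 188 and 446 CPM pooled over all members. Lef1 fell from 1220, 1715 and 1069 CPM to 103, 6.65 and 0 CPM, 68.5-fold on pooled UMIs (95% counting interval 26.5 to 253, adjusted p = 0.000103, edgeR). Bach2 fell by 3.92 ± 0.44 (SE) on the log2 scale (adjusted p = 6.26e-05, edgeR), Satb1 by 4.5 ± 0.44 (adjusted p = 3.2e-05, edgeR) and Foxp1 by 3.11 ± 0.41 (adjusted p = 0.000103, edgeR). No αPD-1 + corin sample reached the lowest αPD-1 sample for any of these 4 genes. In other T cells Foxp1 was also lower in αPD-1 + corin (235 ± 19.9 against 719 ± 84.2 CPM), as was Lef1 (59.7 ± 10.7 against 398 ± 58.9 CPM).

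Of 10 tested T cell identity genes, 6 fell, namely Cd247, Lck, Bcl11b, Skap1, Themis and Txk, and none rose. These falls were smaller in the trimmed members for the following genes. Themis went from 1169 CPM in αPD-1 to 818 CPM in αPD-1 + corin, against 1127 to 161 CPM pooled over all members, Skap1 from 2283 to 954 CPM, against 2202 to 309 CPM, Lck from 544 to 307 CPM, against 525 to 157 CPM, and Cd247 from 894 to 204 CPM, against 862 to 94.9 CPM. Of 25 tested long genes, 21 fell. Arhgap15 fell by 2.94 ± 0.40 on the log2 scale (adjusted p = 0.000133, edgeR), and Rapgef4 from 78 UMIs to 1, 79.2-fold with a counting interval of 13.8 to 3167. Gphn, which encodes the scaffold gephyrin, was the only long gene that rose (2.45 ± 0.68, adjusted p = 0.00902, edgeR). Its level was 9935 CPM in αPD-1 + corin replicate 3, where Gm42418 was at 227774 CPM, and without that sample its log2 fold change was 1.08. In the trimmed members, Gphn was at 1194 CPM in αPD-1 and 4089 CPM in αPD-1 + corin, and Gm42418 at 32214 and 114280 CPM.

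Cytoplasmic genes rose in 20 of 22 tests and fell in none. Actb rose by 2.63 ± 0.46 on the log2 scale (adjusted p = 0.000559, edgeR), from 1036, 922 and 1219 CPM to 7545, 3450 and 2444 CPM. Tmsb4x rose by 3.47 ± 0.44 (adjusted p = 9.96e-05, edgeR) and Fth1, the iron store heavy chain, from 265, 277 and 421 CPM to 29699, 25999 and 3569 CPM. In the trimmed members Actb was at 1039 CPM in αPD-1 and 4566 CPM in αPD-1 + corin, and Tmsb4x at 769 and 6542 CPM. Fth1 was at 295 and 3850 CPM there (445, 5643 and 1195 CPM in the αPD-1 + corin samples), against 318 and 23200 CPM pooled over all members.

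Of 11 tested immediate-early and stress genes, 8 rose, among them Dusp1 (3.57 ± 0.40, adjusted p = 6.26e-05, edgeR) and Fos (1.61 ± 0.40, adjusted p = 0.00488, edgeR). In the trimmed members all 8 kept their direction in pooled CPM, though not every sample followed. Fos was there at 0, 2682 and 435 CPM in αPD-1 + corin against 414, 977 and 271 CPM in αPD-1. Dusp1 was at 445, 1117 and 217 CPM against 196, 258 and 16.9 CPM. Of 7 tested effector genes, 6 rose: Nkg7, Ccl3, Ccl4, Ccl5, Id2 and Zeb2. In the trimmed members all 6 kept their direction in pooled CPM, but none had a UMI in αPD-1 + corin replicate 1. Nkg7 was there at 0, 55.9 and 1087 CPM in αPD-1 + corin against 207, 203 and 50.8 CPM in αPD-1. Ccl5 was at 0, 894 and 6194 CPM against 345, 553 and 406 CPM. The chemokine Ccl3 rose by 5.53 ± 0.94 (adjusted p = 0.000506, edgeR) and Ccl4 by 4.61 ± 0.57 (adjusted p = 8.34e-05, edgeR). Neutrophils and macrophages also express both chemokines, and in the trimmed members they were at 135 and 155 CPM in αPD-1 and 375 and 511 CPM in αPD-1 + corin. The latter levels rest on 11 and 15 UMIs. Of 5 tested interferon-stimulated genes, 4 rose, and all 3 tested macrophage and monocyte genes, Lyz2, Apoe and Ctss, rose. In the trimmed members these genes kept their direction in pooled CPM, with Lyz2, Apoe and Ctss on 15, 15 and 14 αPD-1 + corin UMIs. Srrm2 alone of 14 tested speckle and splicing genes passed the threshold, and it fell by 1.08 ± 0.33 (adjusted p = 0.0151, edgeR).

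The genes with the largest rise were those of activated neutrophils and other myeloid cells. On UMIs pooled over the group, S100a9 was at least 1464-fold higher, Il1b at least 296-fold, Cxcl3 at least 149-fold and Acod1 at least 128-fold. Hcar2 was at least 112-fold higher, Clec4e at least 57.8-fold and Il1f9 at least 28.9-fold. Each had no UMI in αPD-1 members and was therefore set against 3 UMIs over the group. These bounds do not hold for each sample, since αPD-1 + corin replicate 2 gave 3820 of the 4457 UMIs of S100a9. In αPD-1 + corin replicate 3, S100a9 was at 418 CPM, Cxcl3 at 354 CPM and Hcar2 at 322 CPM. Cxcl2 rose from 4 to 3695 UMIs, 910-fold with a counting interval of 355 to 3342. The adjusted p of these 8 genes was between 3.2e-05 and 0.000278 (edgeR), and every αPD-1 + corin sample lay above every αPD-1 sample. The 14 trimmed members held no UMI of S100a9, 1 of Il1b, 1 of Acod1 and 49 of Cxcl2. S100a9 and Il1b were among the genes by which barcodes were removed, so their counts there were set by the removal.

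By fitted log2 fold change the 8 largest falls were those of Tanc1, Rapgef4, Lef1, Fhit, Galnt10, Aff3, Btbd11 and Ssbp2. On pooled UMIs these were, beside Rapgef4 and Lef1, Tanc1 (at least 17.3-fold, from 51 UMIs to 0), Fhit (61.9-fold, 10.7 to 2485), Galnt10 (50.2-fold, 13.5 to 421), Aff3 (47.4-fold, 22.8 to 119), Ssbp2 (46.7-fold, 12.6 to 391) and Btbd11 (44.7-fold, 12 to 375), with counting intervals in brackets. Aff3, a nuclear factor of lymphocytes, went from 1703, 1383 and 1566 CPM to 34.3, 26.6 and 64.3 CPM, and the 14 trimmed members held 2 of its UMIs.

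Whether a difference between the groups was larger in members than in other T cells was tested by the interaction term of an edgeR fit to the 12 sums of members and other T cells, with the sample as a block. It was higher in members for 471 of 8432 genes (5.59%) and lower for 81 (0.961%) at an adjusted p under 0.05, and 1607 genes had an unadjusted p under 0.05. After RLE scaling the counts were 501 and 175, so the part of higher calls depended on the scaling. Members and other T cells were split on these same UMIs, and the part of that split in the terms was not tested. Among naive and quiescent genes, 6 of 20 were past the threshold on the lower side: Lef1 (-2.68 ± 0.76), Bcl2 (-2.69 ± 0.61), Satb1 (-2.66 ± 0.65), Bach2 (-2.26 ± 0.60), Foxo1 (-1.92 ± 0.60) and Foxp1 (-1.62 ± 0.51), with adjusted p between 0.000517 and 0.028 (edgeR). Klf2 was on the higher side (2.42), although its level was lower in αPD-1 + corin in the trimmed members. No T cell identity gene and no speckle or splicing gene passed, while 15 of 24 housekeeping, 9 of 12 immediate-early and stress, 8 of 12 interferon-stimulated, 7 of 10 macrophage and 5 of 6 neutrophil genes passed on the higher side.

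The largest interaction terms on the higher side were those of Il1b, Cxcl3, Acod1, Ptgs2 and S100a9, all without a UMI in αPD-1 members. The term of Cxcl3 turned from 10.84 to -0.16 at a Malat1 limit of 1% (adjusted p = 0.916, edgeR). On the lower side they were those of Tanc1, Slain1, AW554918, Slx4ip and Ece1, all without a UMI in αPD-1 + corin members. Slain1, which promotes microtubule growth, averaged 147 CPM in αPD-1 members, 40.5 CPM in αPD-1 other T cells and 30.9 CPM in αPD-1 + corin other T cells. Ece1, the endothelin-converting enzyme, averaged 112, 36.7 and 38.0 CPM in the same classes. Leaving out 1 library at a time moved the count of higher genes between 220 and 620 and that of lower genes between 24 and 126. The higher count changed by more than 1.5 times without αPD-1 replicate 1, 2 or 3 (220, 251 and 276) or αPD-1 + corin replicate 2 (235), and the lower count without any 1 of the 6.

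Subsets were set by Cd8a, Cd8b1, Cd4 and Foxp3 UMIs, and they name barcodes, since many αPD-1 + corin members also carried neutrophil transcripts. CD8 barcodes (a Cd8a or Cd8b1 UMI and no Cd4 UMI) made up 36.8%, 21.2% and 30.3% of αPD-1 members. They made up 0%, 16.7% and 55.6% of αPD-1 + corin members. Foxp3, the regulatory T cell factor, had no UMI in 123 αPD-1 members, which limits barcodes with a UMI to 2.44% and not cells that express it, and a UMI in 27.3%, 26.2% and 0% of the deeper αPD-1 + corin members (14 barcodes in all). At 800 UMIs per cell the αPD-1 + corin shares were 18.2%, 7.14% and 0%, which lowered the difference from 17.8 to 8.44 points. None of the 22 to 500 B cells thinned per library had a Foxp3 UMI, and 3.91%, 7.57% and 0.186% of other αPD-1 + corin T cells had one. CD4 barcodes without a Foxp3 UMI were 10.5%, 12.1% and 6.06% against 0%, 4.76% and 0%, and barcodes with none of these genes were 61.0% ± 7.39 against 56.5% ± 14.6. None of the 4 differences passed (two-sided exact permutation p from 0.1 to 0.8, adjusted 0.4 to 0.8). At 800 UMIs per cell, CD8 shares were 20.3% ± 4.77 against 5.29% ± 5.57 without overlap (p = 0.1, adjusted p = 0.2, exact permutation test), and 0.2%, 0.8% and 0.6% of αPD-1 B cells had a Cd8a or Cd8b1 UMI. The CD8 difference changed sign without αPD-1 + corin replicate 1, from -5.38 to 6.66 points.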

How the data were processed

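Single-cell RNA-Seq was measured in 6 samples with a droplet-based 5′ kit. The authors aligned reads with Cell Ranger 8.0 to GRCm39. The deposited matrices hold raw UMI counts for each gene and called barcode. Whether intronic reads were counted, and on which strand, is not given in the sources used here, and Seurat 5.0.11 is also named in the submitters' processing notes. Gene positions came from GENCODE vM39, which holds 31674 of the 32285 gene identifiers.

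The members, gene lists, tests and alternatives were chosen with earlier results of these data known. UMI counts were summed per sample over members, other T cells, B cells (at least 2 B cell UMIs) and C1q-positive cells (at least 3 C1q UMIs). Sums were tested with edgeR 4.0.16 (quasi-likelihood, TMM, filterByExpr, Benjamini-Hochberg adjustment, threshold 0.05), once between groups in members and once for the interaction of group and class with the sample as a block. The cell-level MAST test of the study was not used. For shares, the exact permutation test was two-sided and used the 6 samples as units, adjusted over the 4 subsets by the same method. Per-cell shares were thinned to 800 UMIs, which left out no cell. Scrublet (scanpy 1.11.5) marked 2002 barcodes at a rate of 0.4% per 1000 barcodes, and they were kept except in 1 alternative. Intervals cover counting error only.

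Named genes are the 5 markers, up to 4 genes per list by level in members plus every listed gene past a threshold, the 10 largest ratios each way of members to other T cells with at least 100 CPM and 1 direction in 6 samples, the 8 largest differences each way between groups with at least 50 CPM and no overlap, and the 5 largest each way for the interaction. Other genes named were chosen after their values were seen, and some genes that were tested and counted are not reported here. On simulated counts the test between groups found 90 of 150 tested genes changed 4-fold and 137 of 143 changed 8-fold, and the interaction test found 1 of 200 and 71 of 200. No pairing of samples by the replicate numbers of the labels was seen: deviations of same-numbered samples had r of 0.0096, -0.013 and 0.049 across 1181 genes. Those of differently numbered samples had r from -0.044 to 0.044. The sums rest on few barcodes, so a pairing could be missed. Alternatives were other limits for Malat1, ribosomal and mitochondrial UMIs, genes and Cd3 UMIs, doublets left out, other size factors and no filter. Others were Malat1, ribosomal and mitochondrial genes left out, a replicate block, DESeq2 1.42.0, equal numbers of members, and each sample left out. Barcodes with neutrophil or fibroblast UMIs were left out in an alternative added after seeing the data. R 4.3.3 and Python 3.11.15 were used.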

Additional observations from a re-analysis of the deposited data

Results flagged for a closer look

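The difference between members and other T cells depended on the group for 471 genes on the higher side (larger in αPD-1 + corin) and 81 on the lower side, by the interaction term of the edgeR fit. The terms below are on the log2 scale, each with an adjusted p under 0.05. A term of a gene without a UMI in the members of 1 group depends on the prior count of the fit and is not a fold change.

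Neutrophil genes had terms of 11.7 for Il1b, 10.69 for S100a9, 10.13 for S100a8, 9.07 for Csf3r and 8.28 for Retnlg, and the myeloid genes Cxcl3, Acod1 and Ptgs2 had 10.84, 10.77 and 10.71. At a Malat1 limit of 1% the term of Cxcl3 was -0.16. Macrophage and monocyte genes had 8.43 for Csf1r, 8.29 for Fcgr1, 6.14 for Cd14, 4.16 for Lyz2, 2.45 for Cd68 and 1.83 for Ctss. Foxp3 and Capg of the regulatory T cell list had 8.78 and 4.19. The MHC class II chaperone Cd74 had 3.14 and Xbp1, a factor of secretory cells, 2.76.

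Housekeeping genes had 4.53 for Fth1, 3.23 for Ftl1, 3.08 for Tmsb4x, 2.96 for Tpt1, 2.94 for Fau, 2.31 for Eef1b2, 2.27 for Gapdh, 2.27 for Tmsb10, 2.26 for Pgk1, 2.19 for Actb, 2.17 for Ubb, 2.11 for B2m, 2.01 for Pfn1, 2.0 for Actg1 and 1.66 for Cfl1. Effector genes had 4.41 for Ccl3, 3.76 for Ccl4 and 2.37 for Zeb2, and Rgs16, a brake on chemokine signaling, had 2.54.

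Interferon-stimulated genes had 3.57 for Ifi27l2a, 3.46 for Gbp2, 3.02 for Ifit1, 2.73 for Isg15, 2.41 for Ly6c2, 2.22 for Bst2, 1.92 for Irf7 and 1.76 for Ly6a. Immediate-early and stress genes had 2.9 for Dusp1, 2.35 for Egr1, 2.3 for Zfp36, 2.11 for Junb, 2.01 for Ier2, 1.94 for Jun, 1.81 for Hspa1b, 1.77 for Fos and 1.56 for Hspa1a. Klf2 of the naive and quiescent list had 2.42, with 102 CPM in αPD-1 + corin and 170 CPM in αPD-1 members without neutrophil- or fibroblast-bearing barcodes, and Gm42418 and Gphn had 1.48 and 1.47. Without αPD-1 + corin replicate 3 Gm42418 and Gphn were at 0.69 and 0.71 and no longer passed.

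On the lower side, naive and quiescent genes had -2.69 for Bcl2, -2.68 for Lef1, -2.66 for Satb1, -2.26 for Bach2, -1.92 for Foxo1 and -1.62 for Foxp1. Long genes had -4.17 for Rapgef4, -3.4 for Prkcq and -2.08 for Arhgap15. Aff3 had -2.84, Gm26917 -1.78 and the melanoma gene Tyrp1 -4.14. Genes without a UMI in αPD-1 + corin members had -9.78 for Tanc1, -9.39 for Slain1, -9.38 for AW554918, -9.37 for Slx4ip and -9.32 for Ece1.

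The summed level of 3 lists, members over other T cells, lay on opposite sides of 1 in the groups, a difference that was not tested. T cell identity genes had ratios of 1.86, 1.99 and 1.52 in αPD-1 and 0.815, 0.557 and 0.768 in αPD-1 + corin. Interferon-stimulated genes had 0.479, 0.498 and 0.467 against 1.02, 1.31 and 1.04. CoREST complex genes had 1.76, 1.38 and 1.02 against 0.451, 0.668 and 0.468. Without neutrophil- or fibroblast-bearing barcodes the αPD-1 + corin ratios were 2.14, 0.847 and 1.8 for T cell identity genes, 0.814, 1.64 and 0.744 for interferon-stimulated genes and 1.3, 0.653 and 1.24 for CoREST complex genes, no longer on 1 side of 1. They rest on 17, 63 and 73, on 6, 98 and 23, and on 1, 4 and 4 UMIs.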

How the results depend on the processing

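The direction of the share of members among T cells, of the long-gene share, and of the CD4 and Foxp3 shares was the same under every alternative run, although the share difference was -0.00143 points with at least 2 Cd3 UMIs. With 3 samples against 3 none of these tests could pass 0.05. Leaving out 1 sample moved the share difference between -4.59 and -0.613 points, the long-gene difference between -21.6 and -18.3, the CD4 difference between -9.74 and -6.71 and the Foxp3 difference between 13.1 and 26.7. The CD8 difference was 3.57 points without neutrophil- or fibroblast-bearing barcodes and ran from -21.1 to 6.66 with 1 sample left out. The difference in barcodes with none of the subset genes was 7.56 points at a Malat1 limit of 2%, 11.2 after thinning, and from -12.6 to 1.58 with 1 sample left out. The cause of these changes of sign was not tested.

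Genes higher in αPD-1 + corin members numbered 112 with at least 2 Cd3 UMIs, 101 with 9 members per sample and 733 without a filter on low counts, and 261 to 580 with 1 sample left out. Genes lower numbered 113 with at least 2 Cd3 UMIs, 84 with 9 members per sample, and 130 to 472 with 1 sample left out. These settings tested 324, 285 and 13711 genes in place of 1181. For the interaction, genes on the higher side numbered 223 and 174 at Malat1 limits of 1% and 2%, 241 at a ribosomal limit of 6%, 159 with at least 2 Cd3 UMIs, and 220 to 620 with 1 sample left out. Those on the lower side numbered 186 and 53 at the Malat1 limits, 7 with at least 2 Cd3 UMIs, 175 after RLE scaling, 40 without a filter, and 24 to 126 with 1 sample left out.

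A fit with a replicate block found 295 higher and 280 lower genes in members, DESeq2 found 321 and 302, and RLE scaling 342 and 335. The replicate block ended the call of 10 of the 105 named genes. No paired test of the interaction was run, since the sample was already its block. Over all alternatives, the 105 genes named for the difference between groups kept their direction and call in 1770 combinations of gene and setting and lost the call in 200, with no change of direction. The 75 genes named for the interaction kept both in 982 and lost the call in 291. Cxcl3 changed direction at a Malat1 limit of 1% (-0.16) and Irf7 at 2% (-0.26).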

Other observations

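In αPD-1 alone, the genes with the highest ratio of members to other T cells after Gm26917, chosen after their values were seen, were Tanc1, Rai1, Ntrk3, Bcas3, Sec24d, Igf1r, Btbd11, Rapgef4 and Fgf13. Fgf13, a fibroblast growth factor family member that stays inside cells and spans 507 kb, averaged 1100 ± 85.5 CPM in αPD-1 members against 184 ± 3.44 CPM in other T cells, and 31.4 against 46.6 CPM in αPD-1 + corin. Rai1, a chromatin-associated factor, averaged 352 ± 8.22 against 46.3 ± 2.76 CPM. Those with the lowest ratio were Lyz2, Fcer1g, Ndufb11, Csnk2b, Cox7a2, Gzmc, Atp5e, Mrpl30, Ndufb10 and Eif3k, with median log2 ratios from -4.37 to -3.82. Lyz2 and Fcer1g are myeloid genes. Cox7a2, of the respiratory chain, averaged 5.02 ± 8.69 against 196 ± 33.1 CPM.

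In αPD-1 + corin alone, the highest ratios were those of Il1f9, Myo1d, Acod1, Cxcl3, Il1b, Tnfaip6, Il1rap, Slc7a11, S100a9 and Hcar2. Slc7a11, the cystine transporter, which spans 551 kb, averaged 823 CPM in members against 133 CPM in other T cells, and 5.02 against 7.61 CPM in αPD-1. Myo1d, an unconventional myosin over 298 kb, averaged 371 against 49.3 CPM.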
